A study of Mus musculus with 6 samples.

Results

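The oxygen sensing genes described here are 10 genes of the prolyl hydroxylase and hypoxia-inducible factor (HIF) pathway, namely Egln1, Egln2, Egln3, Hif1an, Vhl, Hif1a, Epas1, Hif3a, Arnt and Vegfa. They were chosen by name, with the level of Egln3 in hearts labelled Hspa4-/- already known from the same arrays. All 10 had a probe set among the 20239 genes of the deposited table that carry 1 symbol. The values that chose them are their differences between genotypes, which are therefore given as a description, without a test. The study profiled ventricular RNA of male 129/Sv mice aged 3.5 weeks on Affymetrix Mouse Gene 1.0 ST arrays, whose probes lie along the whole transcript. The arrays are 3 labelled Hspa4-/- (KO), a label for loss of the cytosolic chaperone HSPA4, and 3 labelled Hspa4+/+ (WT). With 3 mice per genotype stated, an array is treated here as 1 mouse. The sources used here do not give how the Hspa4 allele was disrupted.

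In cells with enough oxygen, the EGLN enzymes hydroxylate prolines of the HIF alpha subunits. The VHL protein, the substrate receptor of a ubiquitin ligase, then binds the hydroxylated subunit and marks it for the proteasome. When oxygen falls, the alpha subunits persist, pair with the beta subunit ARNT and switch on genes of glucose use, blood vessel growth and matrix modification, including the gene of EGLN3 itself. In the heart, EGLN3 is abundant in muscle, and HIF activity is known to shape vessel density and fuel use.

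1 array went against its label. Hspa4 read 9.33, 6.63 and 6.75 on KO replicates 1, 2 and 3, against 9.74, 9.50 and 9.48 on WT replicates 1, 2 and 3, all on the log2 scale. On the array labelled KO replicate 1 Hspa4 lay 0.15 below the lowest WT array, while KO replicates 2 and 3 lay far below it. The groups as labelled gave p = 0.1 for Hspa4 (exact two-sided permutation test), the smallest that 3 against 3 can give. Xist, expressed in female cells, read 7.68 on that array and from 5.51 to 5.69 on the other 5, although all are labelled male. Results are therefore given with all 6 arrays and again with the 5 arrays left without it, and these forms share arrays and are not independent. Array medians lay between 6.42 and 6.48. The table holds no measure of background, and precision is limited by how few arrays there are. Over all 20239 genes, 0 passed an adjusted p of 0.05 with 6 arrays (limma; 2261 at an unadjusted p under 0.05) and 89 passed with 5.

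Egln3, a prolyl hydroxylase gene that HIF itself induces, stood far apart from the other 9 genes. Its log2 value was 10.36, 9.32 and 9.49 on KO replicates 1, 2 and 3, against 10.42, 10.53 and 10.42 on WT replicates 1, 2 and 3. KO replicates 2 and 3 were low, and the array labelled KO replicate 1 lay 0.06 below the lowest WT array, so the groups did not overlap. With 6 arrays the mean was 9.72 ± 0.56 in KO and 10.46 ± 0.06 in WT (SD, n = 3 each), a log2 difference of -0.74 (SE 0.22), or 60.0% of the WT level. Without the array labelled KO replicate 1 the KO mean was 9.40, the difference -1.06 (SE 0.08, n = 2 against 3) and the level 48.1% of WT. The difference from the WT mean was -0.10 on the array labelled KO replicate 1, -1.14 on replicate 2 and -0.97 on replicate 3. Egln3 was therefore near WT on the array whose Hspa4 was near WT, and low on both arrays whose Hspa4 was low. By size of the decrease, 8 of the 20239 genes lay below it with 6 arrays. With 5 arrays there were 4, namely Hspa4, Mylk4, Maob and Lgi1. In a ventricle sample, fewer cells that express a gene and less RNA per cell cannot be told apart. The differences of 10 cardiomyocyte markers lay between 0.03 and 0.28 with 6 arrays and between 0.008 and 0.35 with 5. The median over all genes was -0.01 and -0.02. The average level of these markers was 12.06, 12.09 and 12.18 on the KO arrays, against 11.98, 11.96 and 11.91 on the WT arrays. Whether cell content has a part in the difference of Egln3 was not tested.

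**Figure D1:**
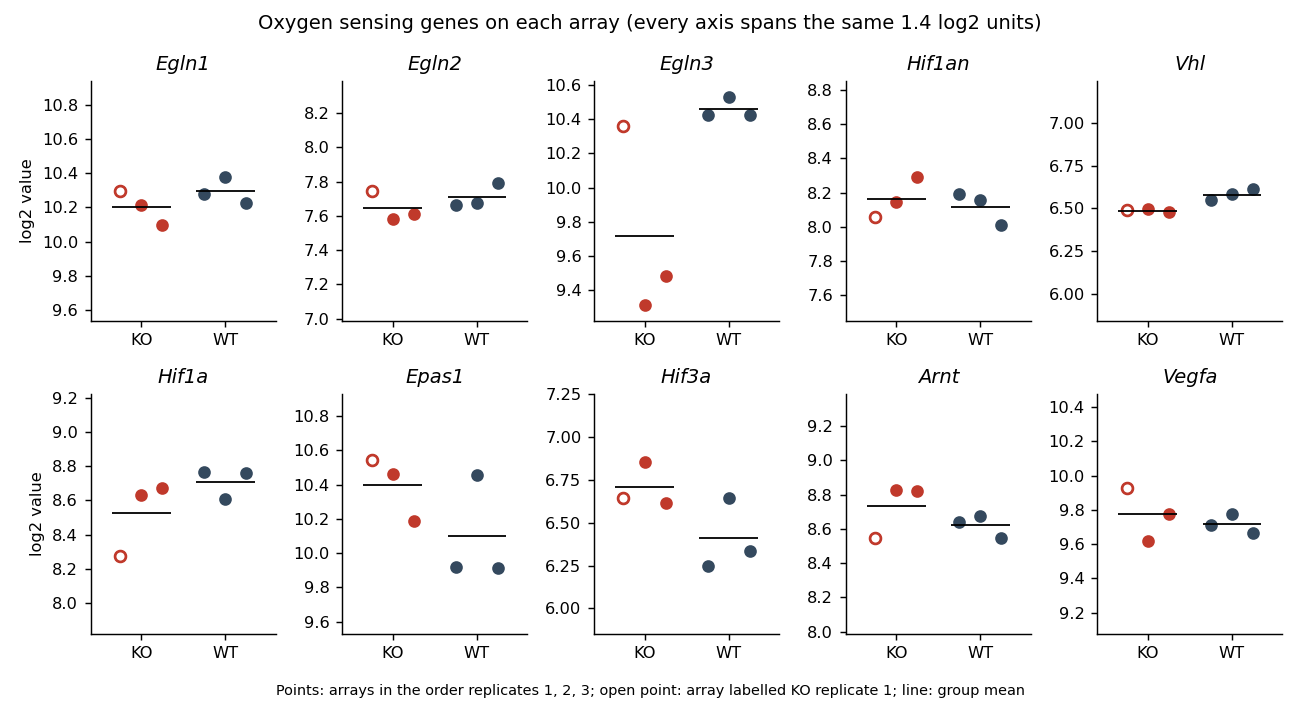
Log2 value of each of the 10 genes (vertical axis, every panel spanning 1.4 log2 units) on the 3 KO arrays (left) and the 3 WT arrays (right), with a line at each group mean and an open point for the array labelled KO replicate 1. Egln3 drops to 9.32 and 9.49 on KO replicates 2 and 3, while its values elsewhere lie between 10.36 and 10.53.

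The paralogs Egln1 and Egln2 differed little beside Egln3. Egln1 encodes the main HIF prolyl hydroxylase of most tissues, and it read 10.30, 10.22 and 10.10 on the KO arrays, against 10.28, 10.38 and 10.22 on the WT arrays. The groups overlapped with 6 arrays, at a difference of -0.09 (SE 0.08). Without the array labelled KO replicate 1 they were separated by 0.007, at a difference of -0.14 (SE 0.08). Egln2, a hydroxylase gene that is not known for induction by hypoxia, read 7.74, 7.58 and 7.61 on the KO arrays, against 7.66, 7.68 and 7.79 on the WT arrays. Here too only the array labelled KO replicate 1 lay among the WT values. The difference was -0.06 (SE 0.07) with 6 arrays and -0.11 (SE 0.07) with 5, when the gap between the groups was 0.05. The direction of Egln1 and Egln2 on KO replicates 2 and 3 was thus that of Egln3, at about the size of the SE with 6 arrays and under 2 SE with 5.

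**Figure D2:**
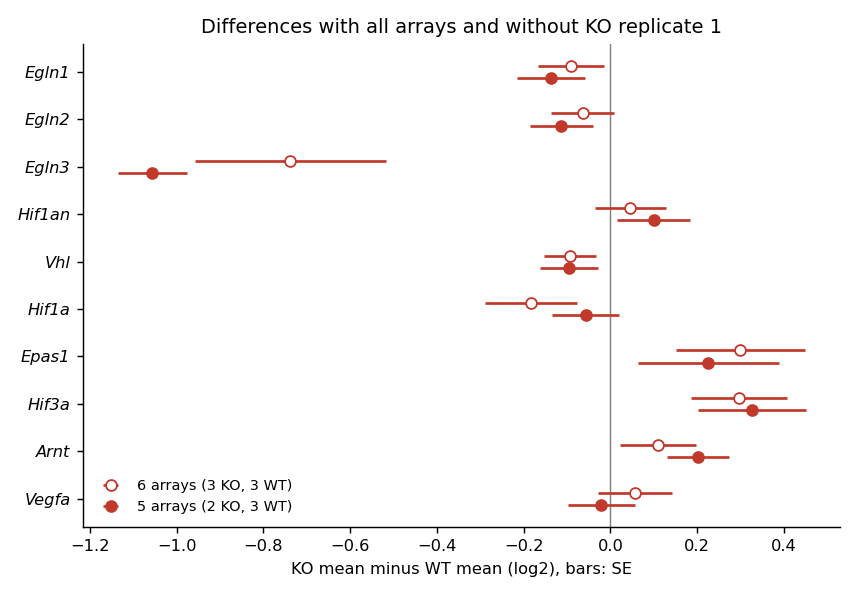
KO mean minus WT mean on the log2 scale for each gene, with bars for limma's moderated SE, for all 6 arrays (open points) and for the 5 arrays without the array labelled KO replicate 1 (filled points). Egln3 lies at -0.74 and -1.06, and the other 9 genes lie between -0.18 and 0.33.

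The promoters of the 3 hydroxylase genes are shown because the genes share a substrate but not the size of the difference, and that of P4ha1 because it was the gene of the wider pathway lists that passed with 5 arrays. The sequences are from RefSeq (GRCm38.p6) and run from 250 bases before the start of the gene to 50 after it, with 9 of the 10 genes found in that table, all except Epas1. Capitals mark ACGTG and GCGTG, the core letters of the HIF response element, on either strand, so that CACGT and CACGC are the same motifs read on the opposite strand.
Egln3, chr12:54203825-54204124, minus strand: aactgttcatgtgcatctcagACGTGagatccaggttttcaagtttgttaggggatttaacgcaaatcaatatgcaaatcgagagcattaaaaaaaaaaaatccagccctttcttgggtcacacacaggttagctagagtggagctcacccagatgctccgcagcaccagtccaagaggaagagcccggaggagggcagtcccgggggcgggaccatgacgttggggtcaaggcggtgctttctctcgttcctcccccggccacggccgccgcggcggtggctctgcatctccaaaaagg
Egln1, chr8:124949205-124949504, minus strand: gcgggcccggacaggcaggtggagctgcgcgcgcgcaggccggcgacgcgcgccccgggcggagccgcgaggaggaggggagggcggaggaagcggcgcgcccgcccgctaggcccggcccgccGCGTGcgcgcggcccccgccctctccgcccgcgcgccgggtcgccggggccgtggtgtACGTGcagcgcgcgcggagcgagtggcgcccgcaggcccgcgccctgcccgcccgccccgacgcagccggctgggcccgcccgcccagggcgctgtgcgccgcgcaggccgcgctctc
Egln2, chr7:27166753-27167052, minus strand: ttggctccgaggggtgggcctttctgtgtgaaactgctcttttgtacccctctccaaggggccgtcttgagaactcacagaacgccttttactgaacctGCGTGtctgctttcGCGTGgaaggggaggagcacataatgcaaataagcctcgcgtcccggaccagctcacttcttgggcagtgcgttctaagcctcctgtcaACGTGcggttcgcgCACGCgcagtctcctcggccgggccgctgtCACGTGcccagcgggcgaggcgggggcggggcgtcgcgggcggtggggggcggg
P4ha1, chr10:59323046-59323345, plus strand: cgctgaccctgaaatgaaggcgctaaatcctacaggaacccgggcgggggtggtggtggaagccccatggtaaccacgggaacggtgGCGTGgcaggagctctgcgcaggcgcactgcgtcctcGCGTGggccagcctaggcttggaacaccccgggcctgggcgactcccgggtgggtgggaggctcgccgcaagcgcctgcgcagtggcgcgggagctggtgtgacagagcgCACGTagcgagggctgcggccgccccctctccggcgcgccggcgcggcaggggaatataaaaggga

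The Egln3 window held 1 match, ACGTG, starting 229 bases before the gene's start. Egln1 held 2, at 126 and 68 bases before the start. Egln2 held 6 places in the window shown, of which the last 2 are a single palindrome read on both strands, and 1 in the window of its other start. P4ha1 held 3. Over all 32851 promoters of the table, 43.8% held at least 1 match, 20.6% at least 2 and 8.93% at least 3. Both motifs contain the pair CG, which is more frequent in the windows shown than in most promoters. Egln3 had 16 such pairs, Egln1 60, Egln2 29 and P4ha1 32, against a median of 7 over all promoters. The part of CG content in the number of matches was not tested. Among the other members, Hif1a held 3 places, of which 2 overlap on opposite strands, Hif3a held 2 and Arnt 1. Vhl and Hif1an held none in these windows. Vegfa held none in the upstream of its 2 windows and 2 in the other. Egln3 had fewer matches than either paralog in the windows shown, and as many as the window of the other Egln2 start. A link between the matches and the size of the difference was not tested. A match is only a run of letters and shows no binding, and windows of this size leave out elements that lie elsewhere in a gene.

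The genes that act on the HIF alpha subunits outside the hydroxylase family differed by small amounts. Vhl read 6.49, 6.49 and 6.48 on the KO arrays, against 6.55, 6.58 and 6.61 on the WT arrays. The groups did not overlap, and here the array labelled KO replicate 1 lay with the other KO arrays. The difference was -0.09 in both forms (SE 0.06 with 6 arrays and 0.07 with 5), or 93.7% of the WT level with 6 arrays, and its arrays spanned 0.13 in all, the narrowest range of the 10 genes. Hif1an encodes the asparagine hydroxylase that keeps HIF from its coactivators, and it read 8.06, 8.14 and 8.29 on the KO arrays, against 8.19, 8.16 and 8.01 on the WT arrays. These values overlapped in both forms, with a difference of 0.05 (SE 0.08) and, with 5 arrays, 0.10 (SE 0.08).

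Among the alpha subunits, Epas1 and Hif3a averaged higher in KO and Hif1a lower, each with overlapping groups. Hif1a, the alpha subunit made in most cells, read 8.28, 8.63 and 8.67 on the KO arrays, against 8.76, 8.61 and 8.76 on the WT arrays. Its lowest value was on the array labelled KO replicate 1, so the difference was -0.18 (SE 0.11) with that array and -0.06 (SE 0.08) without it. Epas1, the alpha subunit prominent in endothelial cells, read 10.54, 10.46 and 10.19 on the KO arrays, against 9.92, 10.46 and 9.91 on the WT arrays. WT replicate 2 lay among the KO arrays, 0.54 above the lowest WT array. The difference was 0.30 (SE 0.15) with 6 arrays and 0.23 (SE 0.16) with 5. With a WT array left out of the 6 it was 0.21 without replicate 1, 0.48 without replicate 2 and 0.21 without replicate 3. The SD of Epas1 over the WT arrays was 0.31, at or above that of 99.2% of genes. Hif3a, whose protein includes forms that restrain the other subunits, read 6.65, 6.86 and 6.62 on the KO arrays, against 6.25, 6.65 and 6.34 on the WT arrays. WT replicate 2 was again the high WT array, and the WT SD of 0.21 was at or above that of 95.6% of genes. The difference of Hif3a was 0.30 (SE 0.11) with 6 arrays and 0.33 (SE 0.12) with 5. With a WT array left out of the 6 it was 0.21 without replicate 1, 0.41 without replicate 2 and 0.26 without replicate 3.

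Arnt, whose protein pairs with the alpha subunits, was higher on KO replicates 2 and 3 only. It read 8.55, 8.83 and 8.82 on the KO arrays, against 8.64, 8.68 and 8.55 on the WT arrays. The array labelled KO replicate 1 lay at the bottom of the WT range, and the other KO arrays differed from each other by 0.002. The difference was 0.11 (SE 0.09) with 6 arrays and 0.20 (SE 0.07) with 5. Vegfa, the vessel growth factor that HIF induces, read 9.93, 9.62 and 9.77 on the KO arrays, against 9.71, 9.78 and 9.67 on the WT arrays. Its values overlapped in both forms, at 0.06 (SE 0.09) and -0.02 (SE 0.08), and both the highest and the lowest array were KO arrays.

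Counted together, the KO and WT values did not overlap in 2 of the 10 genes with 6 arrays, Egln3 and Vhl, both lower in KO, where 15.1% of all genes did not overlap and 9.07% were lower in that way. With 5 arrays 5 of the 10 did not overlap, Egln1, Egln2, Egln3 and Vhl lower and Arnt higher, where 33.3% of all genes did not overlap, 18.9% lower and 14.4% higher. The median difference of the 10 genes was -0.01 with 6 arrays and -0.04 with 5, beside -0.01 and -0.02 over all genes. Leaving Egln3 aside, the median size of the difference, without its sign, was 0.09 with 6 arrays and 0.11 with 5, beside 0.07 and 0.08 over all genes. The members were chosen on this contrast, so nothing is read from these counts.

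Genes whose profile over the 6 arrays was most like that of Egln3 were found by the root mean square difference of log2 values, each gene centred on its own mean. The closest was Fam81a (0.133), followed by Hsph1 (0.138), Cetn4 (0.163), Abhd18 (0.175), Upk3b (0.182), Cyfip2 (0.200), Rmdn2 (0.211) and Pkia (0.220), where the median gene stood at 0.490. Hsph1, a stress-inducible chaperone gene of the same family as Hspa4, read 7.31, 6.62 and 6.66 on the KO arrays, against 7.74, 7.53 and 7.64 on the WT arrays. All 8 genes were low on KO replicates 2 and 3 and nearer to WT on the array labelled KO replicate 1, which is the profile they were sought for. Of the other 9 members, Egln1 was the closest at 0.432, in place 2007 of 20238, and Hif3a the farthest at 0.641. Among the pathway genes named below, P4ha1 (0.296), Hk2 (0.350), Insig2 (0.356) and Ero1a (0.368) lay closer to Egln3 than Egln1 did.

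**Figure D3:**
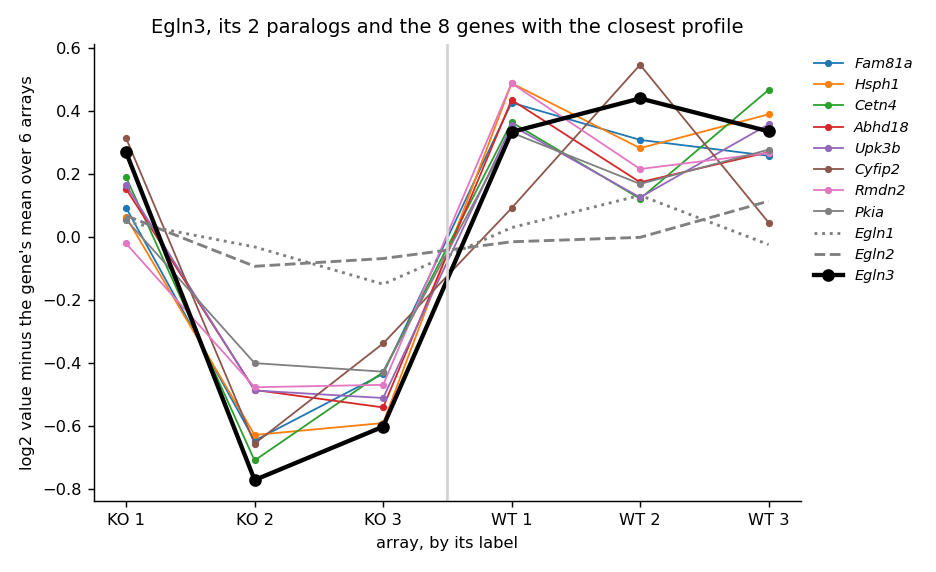
Log2 value minus the gene's own mean over the 6 arrays, for Egln3 (thick black), Egln1 and Egln2 (grey) and the 8 genes with the closest profile, with KO arrays on the left and WT arrays on the right; lines only join the points of a gene. Egln3 and the 8 genes dip on KO replicates 2 and 3, while Egln1 and Egln2 stay close to 0.

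In the wider pathway, P4ha1 was the gene that passed with the 5 arrays left without the array labelled KO replicate 1. With 6 arrays it did not pass, except with array weights (limma, adjusted p = 0.0451). P4ha1 encodes the catalytic subunit of collagen prolyl hydroxylase, an oxygen-using enzyme and a HIF target. It read 7.67, 7.50 and 7.45 on the KO arrays, against 8.19, 7.996 and 7.97 on the WT arrays. All KO arrays lay below all WT arrays. P4ha1 fell 1.49-fold with 5 arrays (log2 difference -0.58, SE 0.08; limma, adjusted p = 0.0326) and differed by -0.51 with 6 (SE 0.09; limma, adjusted p = 0.210). On the array labelled KO replicate 1 it stood -0.38 from the WT mean, farther towards the other KO arrays than Egln3 did. Of the 83 measured genes in 5 lists, 0 passed with 6 arrays, where 0% of all genes passed (limma; 7 lower and 11 higher at an unadjusted p under 0.05, as were 5.53% and 5.64% of all genes). With 5 arrays 1 passed, where 0.44% of all genes passed and 0.208% passed as lower (limma; 7 lower and 11 higher at an unadjusted p under 0.05, as were 6.36% and 8.55% of all genes). With 5 arrays the call of P4ha1 was lost when array medians were subtracted. Leaving out another array, it was lost without WT replicate 1 or WT replicate 3. Without KO replicate 2 or KO replicate 3 only 1 KO array is left, so calls are not read there. The difference of P4ha1 was then -0.60 and -0.56. Without WT replicate 2 the lists had 13 calls, but calls rose over all genes too, to 875 from 89 with the 5 arrays. Whether the lists gained more calls than other genes was not tested.

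HIF targets other than those of glucose use went both ways: of 29 measured, P4ha1 alone passed with 5 arrays and 0 with 6, and the median was -0.02 with 6 arrays and -0.03 with 5. Lox, a collagen cross-linking oxidase gene, differed by 0.32 (SE 0.08) with 6 arrays and 0.38 (SE 0.08) with 5, and the growth factor gene Pdgfb by 0.36 (SE 0.11) and 0.43 (SE 0.11). Ero1a, an oxidase gene of the endoplasmic reticulum, differed by -0.28 (SE 0.09) and -0.34 (SE 0.09), and Insig2, a regulator of sterol synthesis, by -0.29 (SE 0.09) and -0.37 (SE 0.09). The secreted glycoprotein gene Stc2 differed by 0.27 (SE 0.09) and 0.34 (SE 0.08). Their adjusted p lay between 0.0778 and 0.293 over both forms (limma), so none of these 5 passed.

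HIF targets of glucose use had a median of -0.02 in both forms over 17 measured genes, 0 of which passed in either form (limma; with 6 arrays 1 lower and 2 higher at an unadjusted p under 0.05, and with 5 arrays 1 and 1). The aldolase gene Aldoa differed by 0.25 (SE 0.10) with 6 arrays and 0.26 (SE 0.11) with 5, and the lactate dehydrogenase gene Ldha by 0.14 (SE 0.06) and 0.13 (SE 0.07). The glycogen branching gene Gbe1 differed by -0.18 in both forms (SE 0.08 and 0.09). The hexokinase gene Hk2 read 9.79, 9.31 and 9.74 on the KO arrays, against 9.93, 9.77 and 9.91 on the WT arrays. Its groups overlapped only through the array labelled KO replicate 1, with a difference of -0.26 (SE 0.12) with 6 arrays and -0.35 (SE 0.12) with 5. The glucose transporter gene Slc2a1 differed by 0.21 (SE 0.11) and 0.28 (SE 0.11). The genes of this list thus had no shared direction, with 10 of 17 below WT and 7 above with 6 arrays, and 9 below and 8 above with 5.

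HIF partners and regulators had a median of 0.06 with 6 arrays and 0.05 with 5 over 16 measured genes, 0 of which passed (limma; with 6 arrays 1 lower and 1 higher at an unadjusted p under 0.05, and with 5 arrays 0 and 1). Elob and Cul2 encode parts of the ubiquitin ligase that VHL directs. Elob differed by 0.38 (SE 0.11) with 6 arrays and 0.48 (SE 0.10) with 5, and Cul2 by -0.18 (SE 0.07) and -0.11 (SE 0.07). Cited2, which competes with HIF for coactivators, read 10.39, 10.79 and 10.17 on the KO arrays, against 9.82, 10.50 and 9.83 on the WT arrays. WT replicate 2 lay among the KO arrays, as it did for Epas1 and Hif3a. The difference of Cited2 was 0.40 (SE 0.20) with 6 arrays and 0.43 (SE 0.23) with 5, and that of the deubiquitinase gene Usp20 was 0.20 (SE 0.11) and 0.24 (SE 0.12).

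The VEGF family and its receptors had a median of 0.01 with 6 arrays and 0.02 with 5 over 9 genes, 0 of which passed (limma; 0 lower and 1 higher at an unadjusted p under 0.05 in each form). Vegfb read 9.59, 9.52 and 9.69 on the KO arrays, against 9.09, 9.59 and 9.19 on the WT arrays, with WT replicate 2 again among the KO values, and differed by 0.31 (SE 0.12) with 6 arrays and 0.32 (SE 0.14) with 5. The receptor gene Flt1 read 9.47, 9.38 and 9.36 on the KO arrays, against 9.15, 9.49 and 9.19 on the WT arrays, so that WT replicate 2 lay above all KO arrays, and the difference was 0.13 (SE 0.09) and 0.10 (SE 0.11). The coreceptor gene Nrp1 differed by -0.21 (SE 0.10) and -0.19 (SE 0.12), and the lymphatic growth factor gene Vegfc by -0.11 (SE 0.08) and -0.02 (SE 0.07).

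Other oxygen-using dioxygenases, most of which act on histones or DNA, had the highest median of the 5 lists, 0.07 with 6 arrays and 0.15 with 5 over 12 genes, and 0 passed (limma; 0 lower and 4 higher at an unadjusted p under 0.05 in each form). Tet3, an oxidase of methylated DNA, read 7.40, 7.61 and 7.72 on the KO arrays, against 7.15, 7.27 and 6.97 on the WT arrays. The groups did not overlap, with a difference of 0.45 (SE 0.10; limma, adjusted p = 0.221) with 6 arrays and 0.54 (SE 0.10; limma, adjusted p = 0.0588) with 5. The histone demethylase genes Kdm4b, Kdm6b and Kdm4a differed by 0.29 (SE 0.07), 0.27 (SE 0.09) and 0.16 (SE 0.07) with 6 arrays and by 0.31 (SE 0.08), 0.29 (SE 0.10) and 0.14 (SE 0.07) with 5. In 5 of the 12 genes all KO arrays lay above all WT arrays with 6 arrays, where 6.08% of all genes did, and in 6 of the 12 with 5, where 14.4% did.

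**Figure D4:**
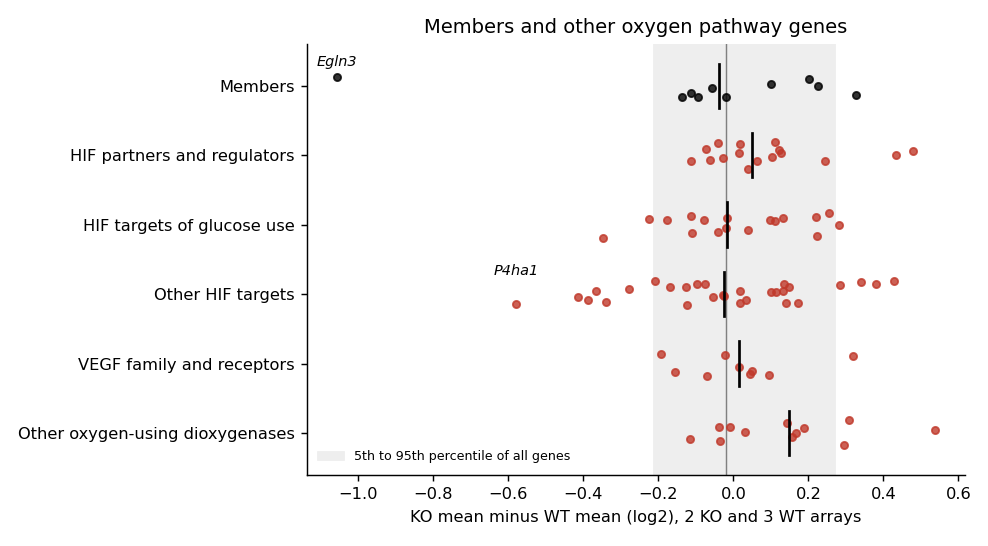
KO mean minus WT mean on the log2 scale for 2 KO and 3 WT arrays, a point for each gene of the 10 members (black) and of the 5 pathway lists (red), with a black bar at each list's median and a grey band from the 5th to the 95th percentile of all genes. Egln3 at -1.06 and P4ha1 at -0.58 lie farthest to the left of the band, and the list medians lie inside it.

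Of the markers of cells that a ventricle sample can hold, 0 of the 69 measured passed with 6 arrays, where 0% of all genes passed. At an unadjusted p under 0.05 (limma) 5 were lower and 13 higher, as were 5.53% and 5.64% of all genes. With 5 arrays, where 0.44% of all genes passed, the skeletal actin gene Acta1 was the 1 marker that passed (log2 difference 1.32, limma, adjusted p = 0.0310). Stressed heart muscle also expresses Acta1. Macrophage markers had a median of -0.14 in both forms, and in 5 of the 8 all KO arrays lay below all WT arrays in both forms, where 9.07% of all genes did with 6 arrays and 18.9% with 5. The scavenger receptor genes Mrc1 and Cd163, chosen after their values were seen, had the lowest differences of the 8 with 6 arrays. These were -0.50 (SE 0.13) and -0.31 (SE 0.12). Lyz2, C1qa and C1qb differed by -0.06, -0.02 and 0.02 with 6 arrays, with overlapping groups. Cardiomyocyte markers had a median of 0.18 with 6 arrays and 0.20 with 5, and all KO arrays lay above all WT arrays in 6 and 7 of the 10, where 6.08% and 14.4% of all genes did. Endothelial markers had a median of 0.13 with 6 arrays and 0.15 with 5, without overlap and higher in 3 and 5 of 12. For smooth muscle and pericytes the median was 0.11 and 0.19, without overlap and higher in 2 and 5 of 8. The medians with 6 and 5 arrays were 0.001 and 0.08 for 8 fibroblast markers, 0.03 and 0.06 for 5 atrial markers and -0.06 and -0.07 for 4 erythroid markers. They were 0.01 and -0.02 for 8 markers of skeletal muscle, and -0.01 and -0.07 for 6 of lung and thymus. The part of these shifts in the values of Egln3 and the other members was not tested. The endothelial list averaged 8.73, 8.69 and 8.78 on the KO arrays, against 8.58, 8.66 and 8.55 on the WT arrays. Epas1 read 10.54, 10.46 and 10.19 on the KO arrays, against 9.92, 10.46 and 9.91 on the WT arrays. A link between the list and Epas1 was not tested.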

How the data were processed

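Ventricle RNA of 6 mice was labelled with the Affymetrix WT Target Labeling Kit and hybridised, per the labels' protocols. The authors deposited log2 values, 1 for each of 21225 probe sets and array, for which the submitters' processing notes name R 2.13.0 and affy; how background was corrected, arrays normalised and probes summarised is not stated there. Of the probe sets, 20239 carried 1 gene symbol, 0 several and 986 none, and all 20239 gene numbers were found in the RefSeq table (GRCm38.p6), used for names and promoters.

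Groups and replicate numbers came from the titles. Differences are KO minus WT from a model with 2 groups in limma 3.58.1 (lmFit, eBayes; R 4.3.3) on the values as deposited, over 20239 genes, with Benjamini-Hochberg adjustment and a threshold of 0.05. The script was tested on simulated data. Listed genes without a probe set, 8 of 91 pathway genes and 5 of 74 markers, were not analysed here. The text names the members, each list's genes past the threshold and those with the next smallest p (4 with 6 arrays, 3 with 5), and the 8 genes most like Egln3. The members and lists were chosen with earlier results of these data known, including the array that goes against its label. The planned pseudocount and the choice between probe sets did not apply, since values were log2 and each symbol had 1 probe set.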

Additional observations from a re-analysis of the deposited data

How the results depend on the processing

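The difference of Egln3 kept its direction in every setting run. The filters and the intensity trend cannot change this difference, nor can the replicate block with 6 arrays, so they are no check of it. Under the settings that can change it, the difference lay between -0.93 and -0.74 with 6 arrays and between -1.08 and -1.05 with 5. With an array left out it lay between -1.06 and -0.54 with 6 arrays and between -1.14 and -0.97 with 5. Quantile normalisation moved Egln2 to -0.17 with 5 arrays. Vegfa changed sign with an array left out, between -0.02 and 0.13 with 6 arrays and between -0.10 and 0.06 with 5, and Hif1an did so with 6 arrays, between -0.02 and 0.10. With an array left out of the 6, members whose groups did not overlap numbered from 2 to 5 of 10. There were 5 without KO replicate 1, where 33.3% of all genes did not overlap, and 5 without WT replicate 2. With an array left out of the 5 they numbered from 5 to 8, with 8 without KO replicate 3 and 8 without WT replicate 2. Apart from the 33.3%, the share of all genes was not computed with an array left out. Smaller groups separate more easily, so nothing about the members is read from these counts.

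Counts of calls were less stable, and the cause was not tested. With 6 arrays, where 0 genes passed, leaving out the lowest 25% or 50% of genes gave 2, array weights 115 and the replicate block 2, and leaving out an array gave from 0 to 112 (89 without KO replicate 1 and 112 without WT replicate 2). With 5 arrays, where 89 passed, subtracted array medians gave 36, the filters 156 and 167, array weights 321 and the replicate block 134, and leaving out an array gave from 2 to 875 (25 and 19 without KO replicates 2 and 3, 6, 875 and 2 without WT replicates 1, 2 and 3). Pathway genes called with 6 arrays were 2 with array weights (P4ha1 and Tet3) and from 0 to 1 with an array left out, the call without WT replicate 2 being Tfrc. With 5 arrays they were 0 with subtracted medians, 2 with either filter (P4ha1 and Tet3) and 3 with array weights. They were 2 with the replicate block (P4ha1 and Elob) and from 0 to 13 with an array left out. The 13 were without WT replicate 2, where 875 of all genes were called. Over genes, the deviations of arrays with the same number from their group means correlated at -0.17, 0.09 and -0.25 for numbers 1, 2 and 3. The highest correlation between a KO and a WT array, 0.33, was that of KO replicate 1 with WT replicate 3. Deviations within a group of 3 sum to 0, so these values cannot show whether the numbers pair the mice. The number of arrays, and a table without a measure of background, limit what can be seen of low genes.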
